A study of Homo sapiens with 6 samples.

Results

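Transcript levels of p53 target genes that act in mitochondria, redox balance, RNA control and signalling were followed in A549 cells, an established line of human lung adenocarcinoma. The members were the probe sets whose annotated symbol was 1 of 10 listed genes, SPATA18, TIGAR, FDXR, TP53I3, TP53INP1, ZMAT3, AEN, CYFIP2, PHLDA3 and TRIAP1. The annotation named a probe set for 9 of them, 1 probe set each, out of 22395 named genes and 53617 probe sets, and FDXR, the mitochondrial ferredoxin reductase gene, had no value here. The members were chosen by known function as p53 targets and with the log2 differences of these same arrays already seen, so the values below describe how these genes behaved and are no separate evidence that p53 targets rose. The groups were Comp.2 (2 µM), Comp.4 (2 µM) and vehicle, each of 2 arrays of RNA taken on day 2, with treatment begun 24 h after plating. The design text calls both code-named compounds 646-PIP (664-PIP in the treatment protocol), and the series title describes histone acetyltransferase inhibitors that recognise DNA sequence. All groups are the same cell line grown in the same medium. Since the labels do not state whether replicates came from separate cultures, p-values here reflect only how far these samples scatter, which may be technical scatter.

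p53 is a transcription factor that is held low by the ubiquitin ligase MDM2 and accumulates under stress, when it binds response elements in or near its target genes. Besides arresting the cycle and priming cell death, its targets adjust metabolism and limit damage: they renew mitochondria, tune the oxidant balance, control RNA stability and restrain growth signalling. A549 cells keep wild-type p53.

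The arrays of a group were alike. Pearson's r over all probe sets ranged over 0.992 to 0.9942 for arrays of 1 group and over 0.9888 to 0.9921 for arrays of different groups. With 2 arrays a group, precision is limited by their number. Of 8 epithelial markers 7 lay above the median gene, among them EPCAM, KRT8 and KRT18, whereas of 7 alveolar type II markers ABCA3 alone did. The summed level of 9 leukocyte markers was 9.70 to 9.71 (log2) under Comp.2, 9.5 to 9.52 under Comp.4 and 9.19 to 9.27 in vehicle. That order was carried by CD68, whose product sits in lysosomes and marks macrophages, which rose by log2 0.67 under Comp.2 (limma adjusted p = 0.0412). Without CD68 the other 8 summed to 7.75 to 7.81 under Comp.2, 7.79 to 7.80 under Comp.4 and 7.73 in both vehicle arrays, and PTPRC, the common leukocyte antigen gene, lay between 2.64 and 2.78 on all 6 arrays. Over all 6 arrays the fibroblast markers summed to 7.04 to 7.21 and the endothelial ones to 7.12 to 7.33.

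The windows in front of these genes are shown for the 2 members past the threshold, SPATA18 and CYFIP2, and for AEN, the measured member whose window held a p53 motif. Each run is the 250 bases before the annotated start (RefSeq, GRCh38.p14), 5′ to 3′ on the gene's strand, and capitals mark a match to the palindromic unit that p53 response elements hold in tandem. For CYFIP2, which has windows at 2 annotated starts, the run at the lower coordinate is shown, and neither window held a match.
SPATA18, chr4:52051054-52051303, plus strand: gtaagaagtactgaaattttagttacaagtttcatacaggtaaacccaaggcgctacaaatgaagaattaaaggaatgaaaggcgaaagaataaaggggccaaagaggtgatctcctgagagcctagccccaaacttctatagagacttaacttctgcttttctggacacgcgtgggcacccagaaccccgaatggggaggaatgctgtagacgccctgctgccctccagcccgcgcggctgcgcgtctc
CYFIP2, chr5:157265873-157266122, plus strand: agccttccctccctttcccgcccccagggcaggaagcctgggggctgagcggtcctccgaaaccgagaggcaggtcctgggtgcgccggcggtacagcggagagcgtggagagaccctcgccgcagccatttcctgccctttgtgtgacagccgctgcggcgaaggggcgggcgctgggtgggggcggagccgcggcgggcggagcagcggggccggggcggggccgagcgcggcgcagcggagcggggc
AEN, chr15:88621090-88621339, plus strand: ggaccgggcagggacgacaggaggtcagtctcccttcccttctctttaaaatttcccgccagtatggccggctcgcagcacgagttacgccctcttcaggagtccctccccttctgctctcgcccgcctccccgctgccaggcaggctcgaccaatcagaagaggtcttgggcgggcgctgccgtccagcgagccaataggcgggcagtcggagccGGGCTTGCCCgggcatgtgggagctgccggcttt

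Windows were found for 7 measured members, 1 of which, AEN, had the p53 unit, read on both strands because the unit is its own reverse complement. Over all 35116 windows of 300 bases (250 before and 50 after the start) 6.63% held it. No member's window held a pair of units up to 13 bases apart, as did 0.0285% of all windows. A match is a description of the letters, and p53 elements often lie in introns outside these windows.

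Under Comp.2 all 9 members were higher than in vehicle on both arrays, as were 22.7% of all genes. SPATA18 and CYFIP2 were past the threshold, as were 0.134% of all genes in that direction. Under Comp.4 the same transcripts lay mostly between the Comp.2 and vehicle levels, and none passed (0.0536% of all genes rose past the threshold and 0.0938% fell). How many of all genes lay in that order was not counted. Set directly against Comp.2, SPATA18 and CYFIP2 were lower under Comp.4, while the 95% intervals of that difference took in 0 for TP53I3 and TRIAP1.

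**Figure D1:**
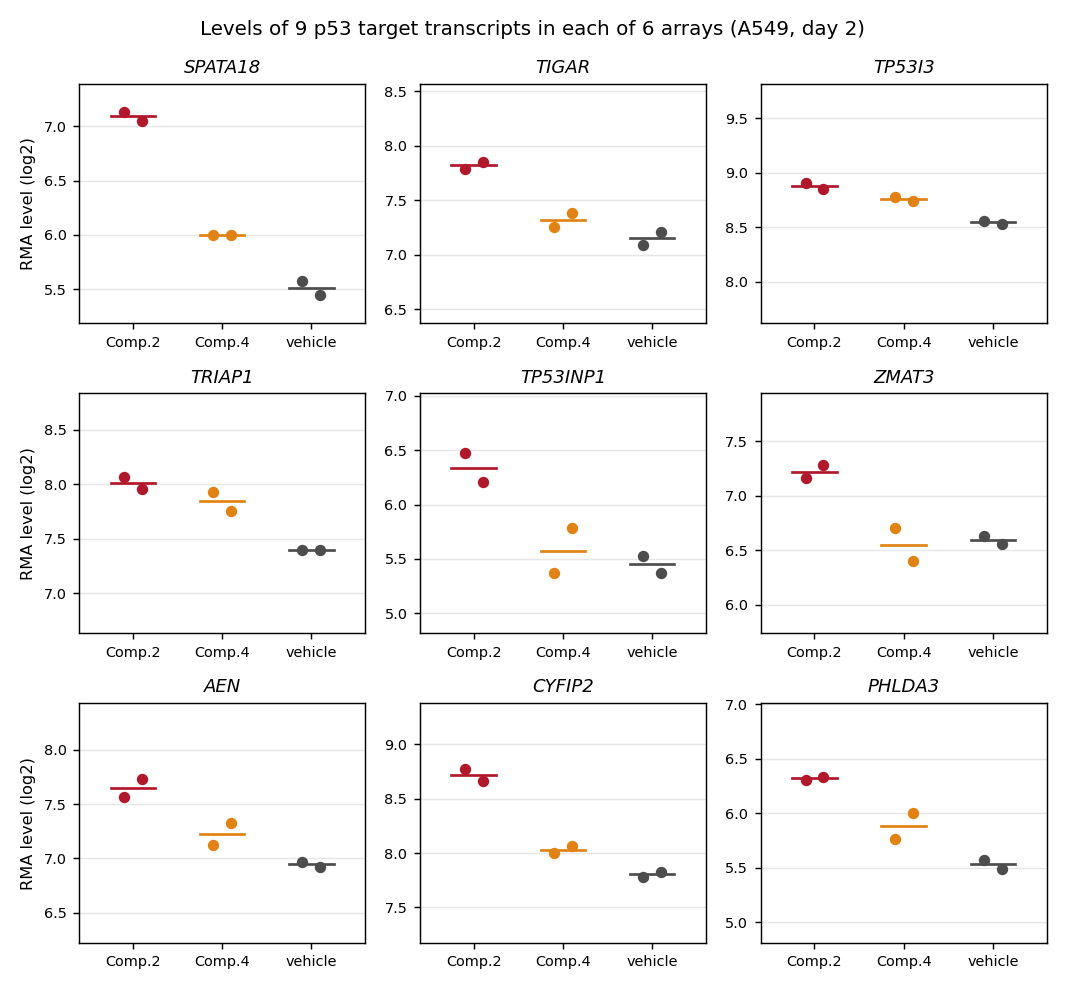
RMA level (log2, y axis; every panel spans the same range) of the 9 measured members in each array, by group on the x axis. Points are single arrays and bars group means. The Comp.2 points lie above both vehicle points in every panel, as they did for 22.7% of all genes. The Comp.4 points lie between the other groups in 7 panels, not for TP53INP1 and ZMAT3, and the share of all genes in that order was not counted.

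The first genes act in the mitochondrion or on its oxidant load. SPATA18 encodes Mieap, a protein of mitochondrial quality control that takes damaged mitochondria or their oxidised proteins out of use. Its level was 7.13 and 7.05 (log2) on the Comp.2 arrays, 6.00 and 6.00 on the Comp.4 arrays, and 5.58 and 5.45 on the vehicle arrays. The groups did not overlap, and each stood further from the next than its own arrays did from each other. SPATA18 rose by log2 1.57 under Comp.2 (SE 0.08, limma adjusted p = 0.00603), a 2.98-fold change and the second largest positive difference among all genes. Under Comp.4 its difference from vehicle was 0.48 (SE 0.08, adjusted p = 0.0813).

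TP53I3 encodes a quinone oxidoreductase that uses NADPH and is linked to oxidant formation in p53-driven death. Its level was 8.91 and 8.85 under Comp.2, 8.78 and 8.74 under Comp.4, and 8.56 and 8.53 in vehicle. The 3 groups were separate but close. It had the smallest Comp.2 difference of the 9, 0.33 (SE 0.07, adjusted p = 0.192), and 0.22 under Comp.4 (SE 0.07, adjusted p = 0.215).

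TIGAR encodes a phosphatase that lowers fructose bisphosphates and so favours the pentose phosphate route, which supplies NADPH. Its level was 7.79 and 7.85 under Comp.2, 7.25 and 7.38 under Comp.4, and 7.09 and 7.21 in vehicle. The Comp.2 arrays stood apart, whereas the lower Comp.4 array barely cleared the higher vehicle array. The Comp.2 difference of 0.67 (SE 0.08, adjusted p = 0.0535) lay just outside the threshold, and the Comp.4 difference was 0.17 (95% interval -0.03 to 0.37).

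TRIAP1 encodes a small protein of the mitochondrial intermembrane space that helps carry phosphatidic acid between membranes and restrains the apoptosome. Its level was 8.07 and 7.96 under Comp.2, 7.93 and 7.76 under Comp.4, and 7.40 on both vehicle arrays. Both compounds lay above vehicle without overlap, and the Comp.2 arrays lay above the Comp.4 arrays by less than either stood above vehicle. The difference was 0.61 under Comp.2 (SE 0.09, adjusted p = 0.0761) and 0.44 under Comp.4 (SE 0.09, adjusted p = 0.104), the second largest Comp.4 difference after SPATA18.

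The next pair acts on nucleic acids. ZMAT3 encodes a zinc finger protein that binds RNA and regulates splicing and the stability of transcripts with AU-rich elements. Its level was 7.16 and 7.28 under Comp.2, 6.70 and 6.40 under Comp.4, and 6.63 and 6.56 in vehicle. The Comp.2 arrays stood apart, and the Comp.4 arrays lay on either side of the vehicle arrays. The difference was 0.63 under Comp.2 (SE 0.11, adjusted p = 0.135) and -0.04 under Comp.4 (95% interval -0.31 to 0.22).

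AEN encodes an exonuclease that degrades nucleic acids during p53-dependent apoptosis, and its window, printed above, carries the p53 unit. Its level was 7.56 and 7.73 under Comp.2, 7.12 and 7.33 under Comp.4, and 6.97 and 6.92 in vehicle. The groups were ordered without overlap. The difference was 0.70 under Comp.2 (SE 0.10, adjusted p = 0.0812) and 0.28 under Comp.4 (SE 0.10, adjusted p = 0.246).

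The last genes encode signalling and stress proteins. CYFIP2 encodes a subunit of the WAVE complex, which controls actin branching, and also binds the RNA-binding protein FMRP. Its level was 8.77 and 8.66 under Comp.2, 8.0 and 8.06 under Comp.4, and 7.78 and 7.83 in vehicle. The groups did not overlap. CYFIP2 rose by log2 0.91 under Comp.2 (SE 0.08, adjusted p = 0.0209), a 1.88-fold change, and its Comp.4 difference was 0.23 (SE 0.08, adjusted p = 0.219).

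PHLDA3 encodes a pleckstrin homology domain protein that competes with the growth kinase AKT for membrane lipids. Its level was 6.31 and 6.33 under Comp.2, 5.76 and 6.00 under Comp.4, and 5.57 and 5.49 in vehicle. The Comp.2 arrays agreed closely, and the groups were ordered without overlap. The difference was 0.79 under Comp.2 (SE 0.10, adjusted p = 0.0513) and 0.35 under Comp.4 (SE 0.10, adjusted p = 0.172).

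TP53INP1 encodes a stress protein of nucleus and autophagosome that promotes p53 activity. Its level was 6.47 and 6.21 under Comp.2, 5.37 and 5.78 under Comp.4, and 5.53 and 5.37 in vehicle. Its arrays were the most spread of the 9, with a gap of 0.40 within Comp.4, and its lower Comp.4 array lay level with the lower vehicle array. The difference was 0.88 under Comp.2 (SE 0.15, adjusted p = 0.131) and 0.12 under Comp.4 (95% interval -0.24 to 0.49).

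Of the 9 measured members, 2 passed an adjusted p of 0.05 as higher under Comp.2 (0.134% of all genes did), 0 as lower (0.0625% of all genes), and 7 in neither direction. All 9 had Comp.2 arrays above both vehicle arrays, as did 22.7% of all genes, and all 9 had an unadjusted p under 0.05 in that direction, as did 6.23% of all genes. Their median difference was 0.70, beside 0.00 over all genes tested, and 8 of them were among the 100 largest positive differences. Under Comp.4 no member passed, against 0.0536% of all genes that rose and 0.0938% that fell. There 7 members lay above vehicle on both arrays (27.2% of all genes did), 6 had an unadjusted p under 0.05 (8.64% of all genes higher), and the median difference was 0.23, beside 0.02 over all genes. Both comparisons use the same vehicle arrays.

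**Figure D2:**
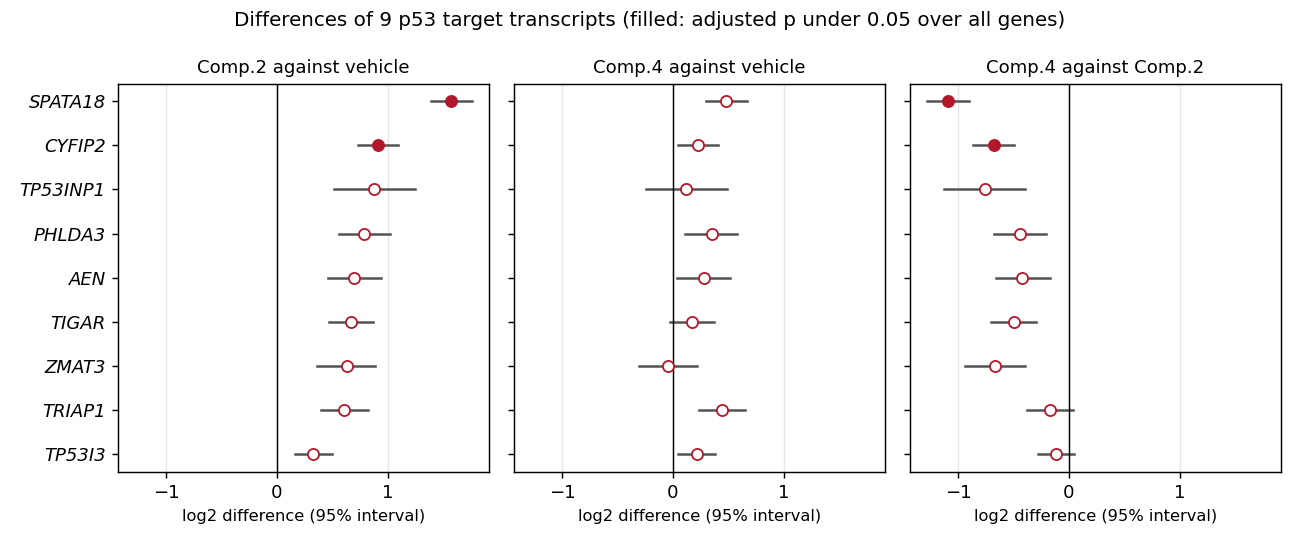
Log2 difference (x axis) of the 9 measured members in the 3 comparisons, with 95% intervals from the moderated variance, ordered by the Comp.2 difference; filled points have an adjusted p under 0.05 over all genes. SPATA18 and CYFIP2 are filled at 1.57 and 0.91 in the first panel and at -1.09 and -0.68 in the third, no point is filled in the second, and the intervals of TP53I3 and TRIAP1 cross 0 in the third.

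The number of limma calls changed with the settings of the fit. With a variance that follows the mean level, all 9 passed under Comp.2 (limma adjusted p from 2.75e-05 to 0.0131), where 226 of all 22395 genes were higher. In that setting 3, SPATA18, TP53I3 and TRIAP1, passed under Comp.4, where 488 of all 22395 genes were higher. Leaving out either vehicle array or either Comp.2 array leaves a single array in that group. The SPATA18 difference under Comp.2 then stayed between 1.51 and 1.64.

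Comp.4 was next compared directly with Comp.2, at matched dose and time, as 1 pair of compounds over 22395 genes. SPATA18 was lower under Comp.4 than under Comp.2 by log2 1.09 (difference -1.09, SE 0.08, adjusted p = 0.0166), and CYFIP2 by 0.68 (difference -0.68, SE 0.08, adjusted p = 0.0306). These were 2 of 9 members (0.179% of all genes were lower), and no member was higher (0.192% of all genes were). All 9 had both Comp.4 arrays below both Comp.2 arrays, as did 21.6% of all genes, 7 had an unadjusted p under 0.05 (7.45% of all genes lower), and the median difference was -0.50, beside 0.01 over all genes. The same Comp.2 arrays serve in the comparison with vehicle, and the members were chosen with these differences seen. These counts are therefore a description and no separate evidence.

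The other 7 members did not pass, and their differences were unequal. TP53INP1 had -0.76 (95% interval -1.13 to -0.40), ZMAT3 -0.67 (-0.94 to -0.40) and TIGAR -0.50 (-0.70 to -0.30). PHLDA3 had -0.44 (-0.68 to -0.21) and AEN -0.42 (-0.66 to -0.17). TRIAP1 had -0.17 (-0.38 to 0.04) and TP53I3 -0.12 (-0.28 to 0.05). For these genes a lower level under Comp.4 of more than 0.38 or 0.28 falls outside the interval. Whether members differed from each other in this respect was not tested. With a variance trend 7 members passed, all but TP53I3 and TRIAP1, where 591 of all 22395 genes were lower. With single arrays left out the SPATA18 difference stayed between -1.13 and -1.05.

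The members moved together over the arrays, although TP53INP1 and ZMAT3 had Comp.4 arrays that overlapped vehicle. They were chosen with their differences seen, and the same r was not computed for other sets of genes. Each member's 6 values correlated with the mean of the other members at Pearson's r of 0.839 (TRIAP1) to 0.997 (SPATA18), a description over 6 arrays in 3 groups. Among 1156 other genes brighter than the median gene and with a range of at least 0.5 log2, the 8 most like the members' mean profile were EDA2R (r = 0.995), C3 (0.991), FAS (0.990), NAV3 (0.988), TBC1D2 (0.987), HSPA4L (0.986), DDB2 (0.982) and PLK2 (0.982). EDA2R and FAS are receptors of the TNF receptor superfamily, and DDB2 recognises UV damage in DNA. C3, the central complement component gene, rose by log2 0.83 under Comp.2 (adjusted p = 0.0209) and was lower under Comp.4 than under Comp.2 by 0.65 (difference -0.65, adjusted p = 0.0299). TBC1D2, which encodes a GTPase-activating protein, rose by 0.67 under Comp.2 (adjusted p = 0.0412), and NAV3, a neuron navigator gene, had 0.57 (adjusted p = 0.0518).

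Of 64 further p53 targets measured from a list of 69, 12 rose under Comp.2 (0.134% of all genes did), 0 fell and the remaining 52 missed the threshold. The median difference was 0.32, beside 0.00 over all genes, and 55 (85.9%) had a positive one, as did 51.3% of all genes. Those that rose were EDA2R (1.34), the cyclin-dependent kinase inhibitor gene CDKN1A (1.19), MDM2 (0.98), the noncoding RNA PURPL (0.97), the sestrin gene SESN1 (0.93), the translesion polymerase gene POLH (0.91), FAS (0.88), DDB2 (0.85), the stress cytokine gene GDF15 (0.85), RPS27L (0.75), GADD45A (0.64) and the phosphatase gene PPM1D (0.62). Under Comp.4 GDF15 alone rose (0.74), as did 0.0536% of all genes, and none fell. The median there was 0.08, beside 0.02 over all genes. MDM2 had 0.10 there (adjusted p = 0.58) and CDKN1A 0.60 (adjusted p = 0.0993). Under Comp.4 7 of the 64 were lower than under Comp.2 (0.179% of all genes were): PURPL (-1.20), EDA2R (-0.96), MDM2 (-0.88), POLH (-0.85), ACER2 (-0.83), DDB2 (-0.67) and E2F7 (-0.58). The median was -0.23, beside 0.01 over all genes.

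Genes next to the members on the chromosome had medians near 0. The nearest measured protein-coding gene on each side gave 18 neighbours, 0 of which passed limma's threshold in any comparison. Only 0.0536% to 0.192% of all genes passed in a given direction, so 0 of 18 says little about the neighbours. At an unadjusted p under 0.05, 1 neighbour was higher (6.23% of all genes were) and 2 lower (1106 of 22395 genes) under Comp.2. Under Comp.4, 2 neighbours were higher (8.64% of all genes) and 1 lower (7.88%). Their median difference was 0.02 under Comp.2 (range -0.29 to 0.21) and 0.06 under Comp.4 (range -0.39 to 0.36), beside 0.70 and 0.23 for the members. GATC, next to TRIAP1, had 0.13 (SE 0.07) under Comp.2 and 0.17 under Comp.4. NDUFAF6, which overlaps TP53INP1, had 0.21 and -0.05, and ISG20, both next to AEN and its paralog, had -0.29 and -0.08.

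Paralogs of the members also had medians near 0. By limma 0 of 15 measured passed in any comparison, which says little, since 0.0536% to 0.192% of all genes passed in a given direction. At an unadjusted p under 0.05, 3 paralogs were higher (6.23% of all genes were) and 1 lower (1106 of 22395 genes) under Comp.2. Under Comp.4, 2 paralogs were higher (8.64% of all genes) and 1 lower (7.88%). Their median was -0.03 under Comp.2 and -0.05 under Comp.4. CYFIP1, the other gene for this WAVE subunit, had -0.06 under Comp.2 (95% interval -0.24 to 0.12), against 0.91 for CYFIP2. TP53INP2 had -0.05, against 0.88 for TP53INP1. ZMAT1, ZMAT2, ZMAT4 and ZMAT5 had -0.04, 0.05, -0.05 and -0.02, and PHLDA1 and PHLDA2 had 0.24 and 0.09. The largest positive Comp.2 differences among the paralogs were those of PFKFB2, a kinase and phosphatase of the metabolite that TIGAR acts on (0.31, adjusted p = 0.231), and CRYZ, a quinone oxidoreductase like TP53I3 (0.28, adjusted p = 0.296). PFKFB3 had -0.10 under Comp.2 and -0.39 under Comp.4 (adjusted p = 0.105).

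**Figure D3:**
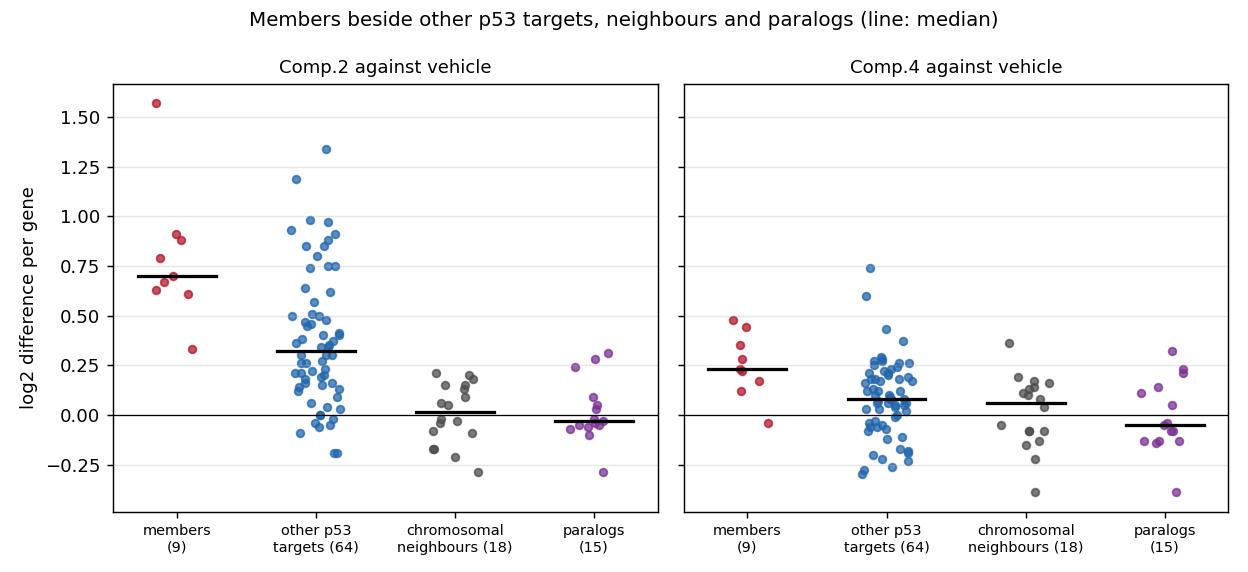
Log2 difference per gene (y axis) under Comp.2 (left) and Comp.4 (right) for the 9 members, 64 other p53 targets, 18 chromosomal neighbours and 15 paralogs; each point is a gene and lines are medians. The member medians are 0.70 and 0.23, those of the other targets 0.32 and 0.08, and neighbours and paralogs centre between -0.05 and 0.06.

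Gene lists of the processes in which the members act had 0 genes past limma's threshold in any of the 3 comparisons. These were 27 genes of mitophagy and mitochondrial quality control, 17 adrenodoxin and iron-sulfur partners of FDXR, 12 WAVE complex partners of CYFIP2, 9 lipid transfer partners of TRIAP1, 20 enzymes of glycolysis and the pentose phosphate route, 24 factors of AU-rich element and mRNA decay, 14 genes of AKT signalling and 22 core autophagy genes. Over all genes 0.0536% to 0.192% passed in a given direction, so 0 in lists of this size says little about them. The list medians under Comp.2 lay between -0.08 and 0.05. Before adjustment each list had 0 to 3 higher genes with a p under 0.05 (6.23% of all genes were) and 0 to 2 lower ones (1106 of 22395 genes). Under Comp.4 they lay between -0.16 and 0.12, the lowest being the mRNA decay factors, of which 11 of 24 had an unadjusted p under 0.05 and a lower level (7.88% of all genes did). The highest were the partners of FDXR, of which 5 of 17 had an unadjusted p under 0.05 and a higher level (8.64% of all genes did). Between the compounds, 10 of the 24 mRNA decay factors were lower under Comp.4 at an unadjusted p under 0.05 (7.45% of all genes were), and 0 higher (1684 of 22395 genes were). The other lists had 0 to 3 higher genes there and 0 to 2 lower ones, beside those same shares of all genes. Of 22 regulators of p53, MDM2 and PPM1D rose under Comp.2 (0.134% of all genes did), and both are also its targets.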

How the data were processed

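The 6 arrays of A549 RNA are deposited as log2 values, which the authors made with RMA, per the submitters' processing notes. Transcriptome Analysis Console 2.0 and Affymetrix Expression Console 1.3.1 are named there too, without their roles. RMA equalises the arrays (medians 4.55 to 4.56), so a change shared by most transcripts cannot be seen, and its background makes differences of dim probe sets too small. No scanner file or detection call was used here. The genome build of the probe sets is not given in the sources used here.

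Names came from the platform annotation: 23871 probe sets had 1 symbol, 1842 several and 27904 none here. Entrez numbers of 22569 were found in RefSeq (GRCh38.p14), which updated 90 symbols. Only single-symbol probe sets entered gene comparisons. The brightest probe set stood for each of the 632 genes with more than 1, leaving 22395 genes.

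Limma 3.58.1 in R 4.3.3 fitted a mean per group to all 6 arrays (3 residual and 3.71 prior degrees of freedom). P-values are two-sided and adjusted by the Benjamini-Hochberg method over all 22395 genes, with a threshold of 0.05. Standard errors and 95% intervals use the moderated variance. The fit was tested on simulated data. Members, lists and alternatives were chosen with earlier results of these data known. Named were all members, MDM2, CDKN1A, every further p53 target past the threshold, up to 3 genes past it from each other list, paralogs, and the 8 genes most like the members' mean profile; other named genes, the neighbours and the protein-coding fit were chosen after their values were seen. A further gene that the rule names was not analysed here. Alternatives changed the variance prior, low-value filter, probe sets tested, scaling, arrays fitted and pairing.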

Additional observations from a re-analysis of the deposited data

How the results depend on the processing

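Each member kept its sign in the 3 comparisons under all 15 alternatives, except TP53INP1 and ZMAT3 under Comp.4 against vehicle. Without Comp.4 replicate 2 these were -0.0795 and 0.103, and with single arrays left out they spanned -0.0795 to 0.324 and -0.193 to 0.103, never past the threshold. Counts past the threshold moved more. Members higher under Comp.2 were 2 as reported, 9 when the variance followed the mean, 9 for genes above the median level, 4 for genes with a mean above 4 (log2), 6 for protein-coding genes alone (a setting chosen after seeing the data), 1 with the replicate block and 0 over all probe sets, where all 9 had an unadjusted p under 0.05. Members higher under Comp.4 than in vehicle were 0 as reported, 3 when the variance followed the mean and 2 above the median level. Members lower under Comp.4 than under Comp.2 were 2 as reported, 7 in each of those settings, and 0 over all probe sets, in a fit of the compared groups alone and with the replicate block (7 unadjusted by limma in each). The SPATA18 call under Comp.2 held in 10 of the 15 alternatives and that of CYFIP2 in 9, with adjusted p from 2.75e-05 to 0.105 and from 4.93e-05 to 0.212. With single arrays left out, which leaves fewer degrees of freedom, 0 to 2 members were higher under Comp.2, 0 under Comp.4, and 0 lower under Comp.4 than under Comp.2. The member medians were then 0.668 to 0.756, 0.194 to 0.324 and -0.566 to -0.436.

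Over all genes, 30 were higher and 14 lower under Comp.2 as reported. They were 226 and 162 when the variance followed the mean, 154 and 79 above the median level, 9 and 5 with the compared groups alone, 9 and 6 with the replicate block, and 0 and 0 over all probe sets (2303 and 2459 unadjusted). Under Comp.4, 12 and 21 became 488 and 738, 340 and 499, 0 and 0 (1999 and 1767 unadjusted), 0 and 4, and 7 and 92 in the same settings, 37 and 50 with a mean above 4, and 0 and 0 for protein-coding genes alone (1624 and 1540 unadjusted). Between the compounds, 43 and 40 became 484 and 591, 324 and 392, 0 and 0 (1448 and 1400 unadjusted), 0 and 0 (1609 and 1518 unadjusted), and 1 and 1, then 77 and 74 with a mean above 4, and 14 higher for protein-coding genes alone. With single arrays left out the counts were 0 to 9 and 0 to 5 under Comp.2, 0 and 0 under Comp.4 (at least 1228 and 1150 unadjusted), and 0 to 1 and 0 between the compounds. Same-numbered arrays showed no shared deviation between groups (correlations of -0.042 to 0.029 over genes), which cannot tell whether their cultures were paired. Recentring the arrays, or averaging the probe sets of a gene, changed no member's call. The cause of these shifts was not tested beyond the fewer arrays or genes that some settings use.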
